A study of Arabidopsis thaliana with 4 samples.

Results

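The class III peroxidases are the plant-specific family of secreted, haem-containing peroxidases, and their transcripts were compared here between the allantoin-accumulating mutant aln-1 and its wild type Col-0. Of 60 member loci, 45 had a probe set that names that locus alone, and these 45 genes are the ones described. Of the other 15, 7 lie on probe sets that name several genes and 8 have no named probe set here; none of these was analysed here. In all, the arrays held 22746 probe sets, and 13350 gene names stood alone on one or more of them. The plants were Arabidopsis thaliana seedlings at 2 weeks from germination, of which the aerial parts were taken after growth on sterile solid 1/2MS medium with 1% sucrose under long days, with no other treatment in the labels. There were 2 arrays of Col-0 and 2 of aln-1, which carries a mutant allele of ALN, the gene for allantoinase, in Col-0 background, each labelled as an independent biological replicate. Only 1 mutant allele was profiled, and the labels do not give where its lesion lies.

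Class III peroxidases use hydrogen peroxide to oxidise phenolic substrates in the cell wall and can also release reactive oxygen species there. They couple monolignols into lignin, cross-link wall proteins and polysaccharides, loosen walls during growth and take part in the oxidative burst against pathogens. Many members are expressed mainly in roots, where they act in root hairs and in the lignin ring of the endodermis known as the Casparian strip. ALN encodes allantoinase, which hydrolyses allantoin in purine breakdown. The comparison asked which peroxidase transcripts differ in shoots of a plant that accumulates allantoin, and how root-expressed members compare with the rest.

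Every value below is a log2 signal relative to the gene's own median over the 4 arrays, so that a value of 1 is a doubling over that median and levels of different genes cannot be set against each other. This centring makes the 2 middle arrays of a gene equal in size and opposite in sign. Differences are aln-1 minus Col-0 on that scale with their standard error (SE), and n = 2 arrays per genotype throughout. As a check of the labels, ALN stood at 1.59 and 2.03 on the Col-0 arrays and at -1.59 and -1.72 on the aln-1 arrays, a difference of -3.46 (SE 0.22) with a limma adjusted p of 0.0580, so the genotypes were far apart in the direction of the label, short of the 0.05 threshold. The rounding of the values also shows how bright each gene was, by class, on the dimmest of its 4 arrays: 17 peroxidases were bright (signals of at least 256), 22 were in a middle class and 6 were dim (a signal below 16). The median within-genotype SD was 0.20, 0.39 and 0.79 in these classes, so the dim members are the least certain. For bulk tissue such as this, fewer cells of a type and less RNA per cell cannot be told apart.

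Most peroxidase transcripts were higher on average in aln-1. The difference was above 0 for 32 of 45 members and below 0 for 13, with a median of 0.66, beside a median of -0.076 over all probe sets, of which 44.0% were above 0. The differences spanned -2.34 to 2.25. Both aln-1 arrays lay above both Col-0 arrays for 24 members, or 53.3%, against 25.2% of all probe sets. Both lay below for 9 members, or 20.0%, against 34.9% of all probe sets, and the genotypes overlapped for the remaining 12.

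No single member passed the test. In limma over all probe sets, with Benjamini-Hochberg adjustment and a threshold of 0.05, 0 of 45 members were called, against 0.154% of all probe sets called higher and 0.101% called lower. The limma adjusted p of the members ran from 0.0813 to 0.906. At an unadjusted limma p under 0.05 there were 18 members, which is 40.0% against 23.4% of all probe sets. Of these, 13 were higher, or 28.9% of members against 11.1% of all probe sets. The 5 lower ones were 11.1% against 12.3%, near the share of all probe sets. The call depended on how the spread was pooled. With the limma prior fitted within brightness classes 6 members were called, 4 higher and 2 lower, and without the dim probe sets also 6, again 4 higher and 2 lower. These sets shared 4 genes, AT4G36430, AT4G33420, AT5G64100 and AT5G58390. The other members called in 1 of these fits were AT3G21770 and AT1G30870 with the class prior and AT2G43480 and AT5G19890 without the dim probe sets. The background in these fits was 2.77% higher and 1.86% lower, and 2.91% higher and 1.96% lower.

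**Figure D1:**
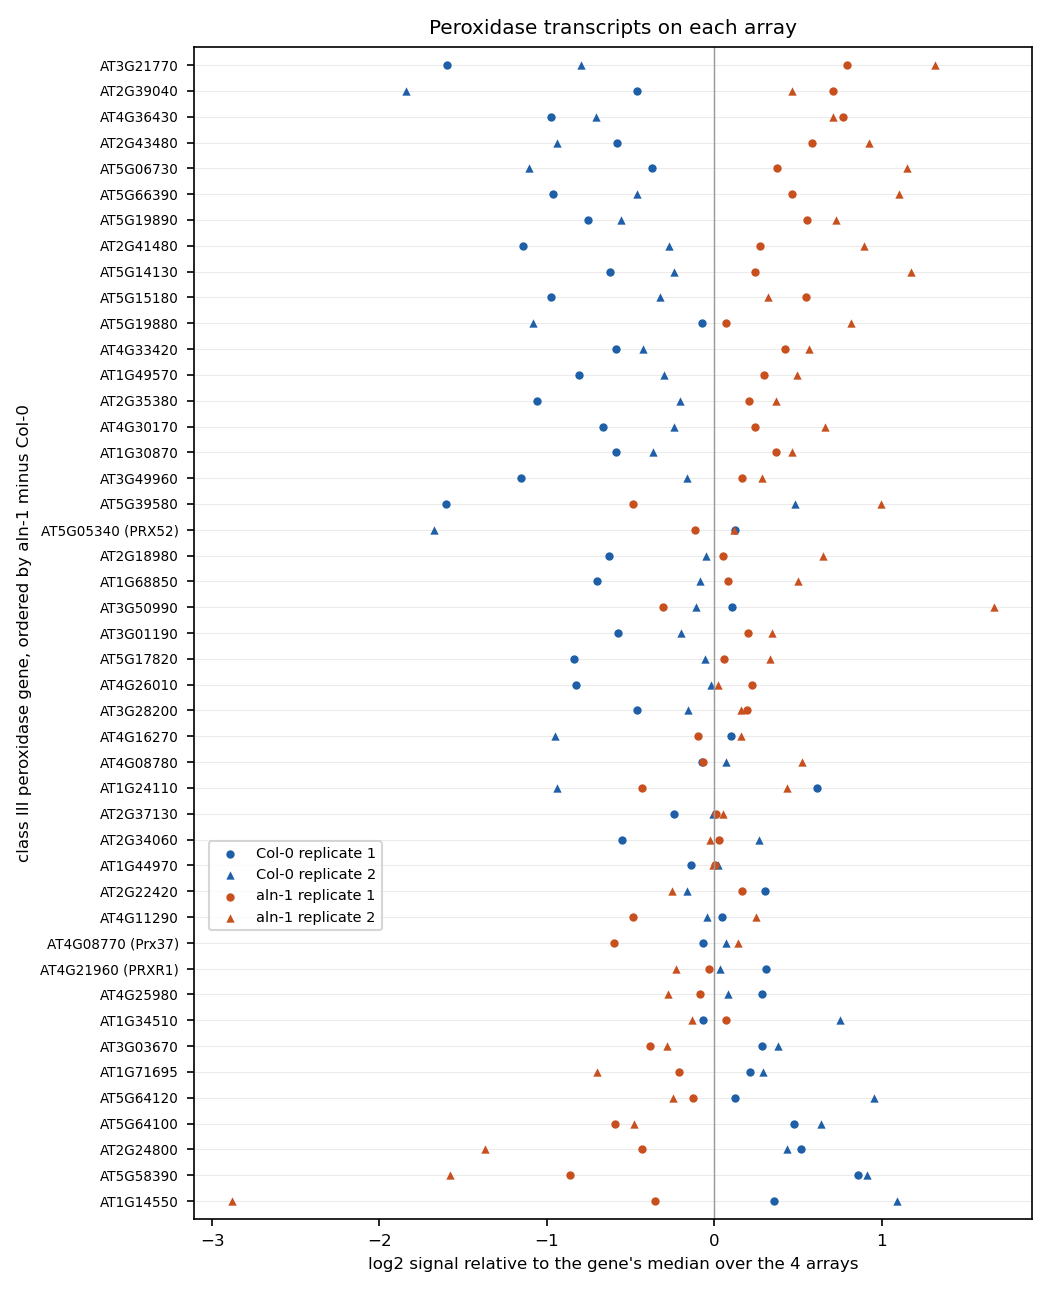
Signals of the 45 class III peroxidases on each array, on the x axis as log2 relative to the gene's median over the 4 arrays, with 1 row per gene ordered by the difference between genotypes. Circles are replicate 1 and triangles replicate 2, blue for Col-0 and orange for aln-1. In the upper 17 rows both orange points lie right of both blue points, and in every row below AT1G34510 both lie left of them.

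In all, 5 members were at least 2-fold apart whichever aln-1 array was set against whichever Col-0 array (4 pairs), 4 with aln-1 higher and 1 with aln-1 lower. That is 8.89% of the members higher and 2.22% lower, against 4.67% and 3.54% of all probe sets. AT3G21770, the member with the highest difference, stood at -1.60 and -0.79 on the Col-0 arrays and at 0.79 and 1.32 on the aln-1 arrays. The genotype means (± SD of 2 arrays) were -1.20 ± 0.57 for Col-0 and 1.06 ± 0.37 for aln-1, which lie 2.25 (SE 0.39) apart, or 4.77-fold, with a limma adjusted p of 0.115. The nearest arrays of the genotypes were 1.59 apart, more than the 0.80 between the Col-0 replicates and the 0.52 between the aln-1 replicates. With the prior fitted within brightness classes its limma adjusted p was 0.0453, and without the dim probe sets it was 0.0560, short of the threshold.

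AT4G36430 had the lowest adjusted p of the family. It stood at -0.98 and -0.71 on the Col-0 arrays and at 0.77 and 0.71 on the aln-1 arrays, a difference of 1.58 (SE 0.17) or 2.99-fold with a limma adjusted p of 0.0813. Its replicates lay within 0.27 of each other in Col-0 and within 0.061 in aln-1, far less than the 1.42 between the nearest arrays of the genotypes. AT2G43480 stood at -0.58 and -0.94 in Col-0 and at 0.58 and 0.92 in aln-1, a difference of 1.51 (SE 0.23). AT5G19890 stood at -0.75 and -0.56 in Col-0 and at 0.56 and 0.73 in aln-1, a difference of 1.30 (SE 0.16). In both genes the genotypes were well apart, and their limma adjusted p was 0.101 and 0.0881. Without the dim probe sets the limma adjusted p was 0.0379 for AT4G36430, 0.0483 for AT2G43480 and 0.0405 for AT5G19890. With the class prior the limma adjusted p was 0.0269, 0.0566 and 0.0557 in the same order, so AT2G43480 and AT5G19890 missed the threshold there.

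The only member lower by that rule was AT5G58390. Its Col-0 arrays were nearly equal at 0.86 and 0.91, and its aln-1 arrays stood at -0.86 and -1.58. The difference was -2.10 (SE 0.31), or 4.30-fold lower, with a limma adjusted p of 0.0979; it was 0.0460 without the dim probe sets and 0.0460 with the class prior. AT5G58390 kept a difference between -2.46 and -1.75 when any 1 array was left out.

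Just short of the 2-fold rule were AT5G64100, with 0.95 between its nearest arrays, AT5G66390 with 0.93 and AT2G39040 with 0.92, while the last gene inside it, AT5G19890, had 1.11. The count of 5 grew with any 1 array left out, when only 2 pairs must differ. The share of all probe sets under that looser rule was not taken.

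**Figure D2:**
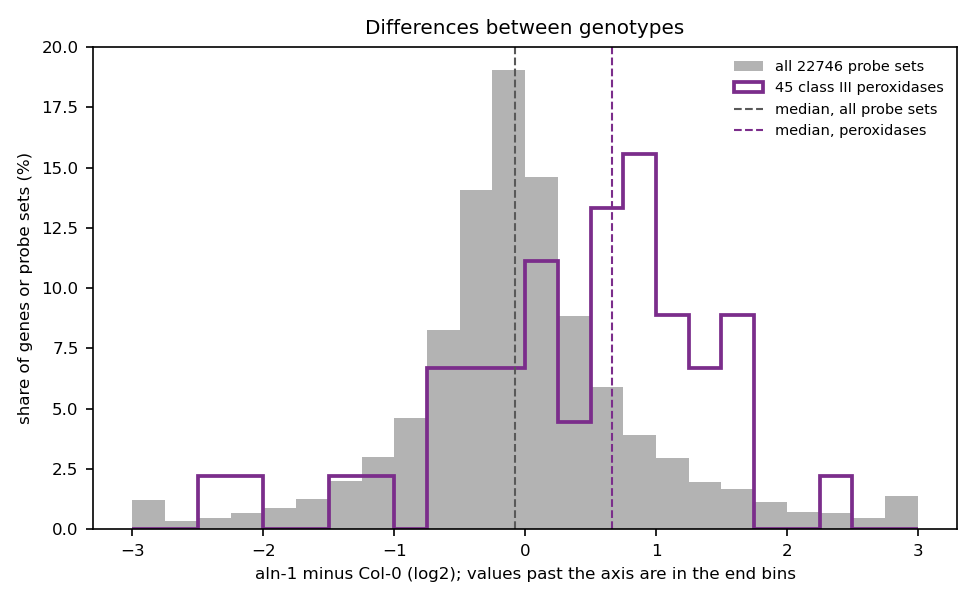
Distribution of the difference between genotypes, aln-1 minus Col-0 in log2 on the x axis, as a share in percent of the 22746 probe sets (grey) and of the 45 peroxidases (purple outline), with dashed lines at the medians. The peroxidase median is 0.66 and that of all probe sets -0.076.

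The root-expressed peroxidases showed mostly positive differences of moderate size. A list of 14 loci, drawn from general knowledge, holds members placed in root hairs, in the endodermis and in the root generally, and 11 of them were measured. Of these, 9 were above 0 and 2 below, with a median of 0.66. The 34 other peroxidases had a median of 0.58, with 23 above 0 and 11 below. These are all measured members outside the list. Whether they are expressed in roots was not assessed, so they are not a set without root expression. The genotypes were apart with aln-1 above for 7 of 11 root members and 17 of 34 others, and with aln-1 below for 1 and 8. Above, these are 63.6% and 50.0% against 25.2% of all probe sets, and below 9.09% and 23.5% against 34.9%. None of the root members was 2-fold apart in all 4 pairs. The order of the medians turned with 1 array: without Col-0 replicate 1 they were 0.25 for the root members and 0.44 for the others, and without Col-0 replicate 2 they were 1.00 and 0.53. The difference between both sets was not tested.

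Root hair peroxidases supply and consume the reactive oxygen that goes with tip growth of the hair. On the root hair list 5 of 6 genes were measured, 4 of them with a difference above 0. Their median was 0.82, and 0.15 without Col-0 replicate 1. AT1G30870 stood at -0.59 and -0.37 on the Col-0 arrays and at 0.37 and 0.46 on the aln-1 arrays, a difference of 0.89 (SE 0.16) with a limma adjusted p of 0.117. With the class prior the limma adjusted p of AT1G30870 was 0.0431, and without the dim probe sets 0.0589. AT1G30870 was the steadiest of the root hair members that were higher, with a spread within genotypes of at most 0.22. AT3G49960 stood at -1.16 and -0.16 in Col-0 and at 0.16 and 0.29 in aln-1, a difference of 0.89 (SE 0.41). For AT4G26010 the Col-0 arrays were at -0.83 and -0.022 and the aln-1 arrays at 0.23 and 0.022, a difference of 0.55 (SE 0.35). In both of these genes Col-0 replicate 1 was far below the other 3 arrays, and without it the differences were 0.39 and 0.15.

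AT5G39580 was spread within both genotypes, at -1.60 and 0.48 in Col-0 and -0.48 and 1.00 in aln-1. The genotypes overlapped, the difference was 0.82 (SE 1.00), and without Col-0 replicate 1 it was -0.23. AT5G64100 was lower in aln-1. It stood at 0.48 and 0.64 in Col-0 and at -0.60 and -0.48 in aln-1, a difference of -1.09 (SE 0.15) or 2.13-fold lower, with a limma adjusted p of 0.0922. All 4 arrays of AT5G64100 were bright, its replicates differed by at most 0.16, and the limma adjusted p was 0.0440 without the dim probe sets and 0.0314 with the class prior.

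Peroxidases of the endodermis build the lignin of the Casparian strip, and 3 of 5 genes on that list were measured. AT5G66390, annotated as PRX72 and also known for lignin deposition in stems, stood at -0.96 and -0.46 in Col-0 and at 0.46 and 1.11 in aln-1. Its difference was 1.50 (SE 0.34), or 2.83-fold, with a limma adjusted p of 0.147, and both aln-1 arrays lay above both Col-0 arrays. The other members of the list were close to 0. AT1G44970 had arrays at -0.14 and 0.02 in Col-0 and 0.0059 and -0.0059 in aln-1, a difference of 0.059 (SE 0.14). AT4G11290 had arrays at 0.043 and -0.043 in Col-0 and -0.49 and 0.25 in aln-1, a difference of -0.12 (SE 0.31), and both genes overlapped between genotypes. The list as a whole had a median of 0.059, and the 4 Casparian strip genes listed outside the family were not analysed here for want of a probe set naming them alone.

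The 3 other root peroxidases all had positive differences. AT4G30170 stood at -0.66 and -0.24 in Col-0 and 0.24 and 0.66 in aln-1, a difference of 0.90 (SE 0.26). AT3G01190 stood at -0.58 and -0.20 and 0.20 and 0.35, a difference of 0.66 (SE 0.20). AT5G17820, which is also placed on the list of burst and cuticle peroxidases, stood at -0.84 and -0.055 and 0.055 and 0.33, a difference of 0.64 (SE 0.35). In all 3 genes both aln-1 arrays lay above both Col-0 arrays, as in 53.3% of members and 25.2% of all probe sets. Col-0 replicate 1 was the lowest array in all 3, as in 53.3% of members and 23.9% of all probe sets. Without that array AT5G17820 differed by 0.25.

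**Figure D3:**
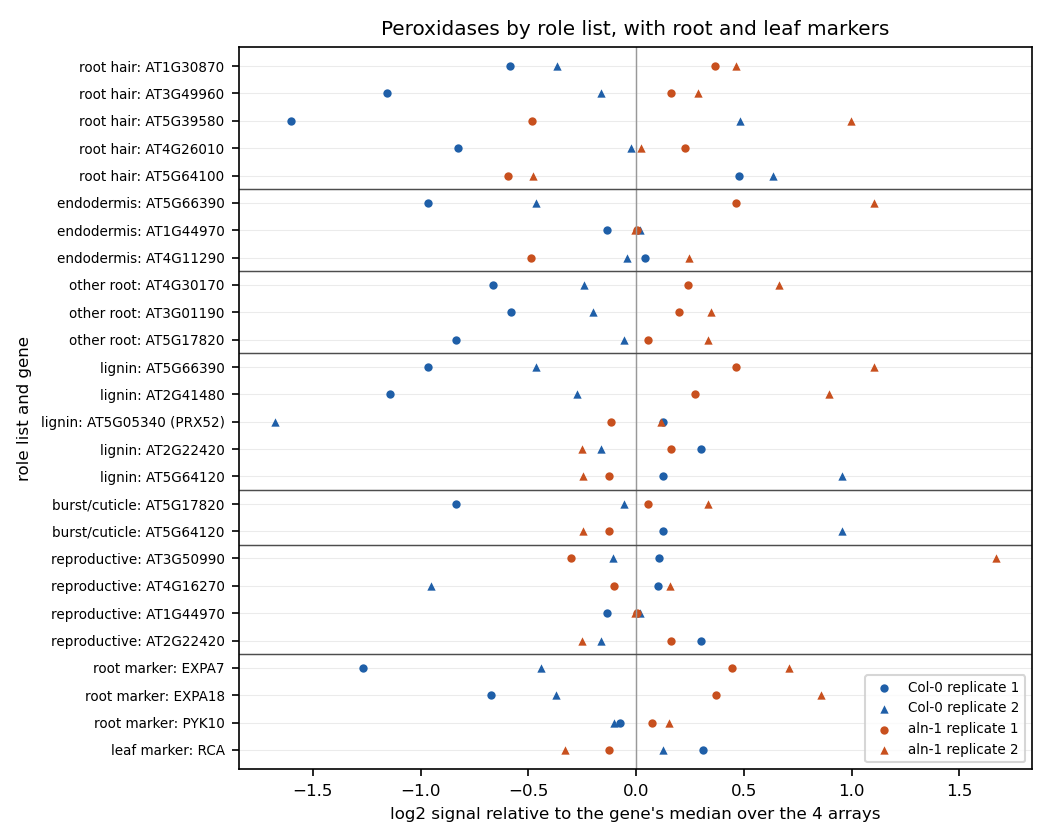
Signals of the peroxidases on the 6 role lists and of root and leaf markers, on the x axis as log2 relative to the gene's median over the 4 arrays; circles are replicate 1 and triangles replicate 2, blue for Col-0 and orange for aln-1, and a gene on more than 1 list is drawn in each. Blue circles, Col-0 replicate 1, form the left edge of most root rows and of EXPA7 and EXPA18, and RCA runs the other way.

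Col-0 replicate 1 was the lowest array for 9 of 11 root members and for 24 of 45 members in all, or 53.3%, against 23.9% of all probe sets. Among the 17 bright members it lay below Col-0 replicate 2 in 16, or 94.1%, against 48.9% of bright probe sets. In aln-1 too, replicate 1 lay below replicate 2, in 29 of 45 members, or 64.4%, against 45.0% of all probe sets. This held for 9 of 11 root members. The highest array was aln-1 replicate 2 for 25 of 45 members, against 5788 of 22746 probe sets. Over the family the median value was -0.46 and -0.16 on the Col-0 arrays and 0.068 and 0.33 on the aln-1 arrays. Without Col-0 replicate 1 the median difference was 0.39 for the family.

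Root markers outside the 60 member loci, where measured, also lay higher in aln-1, in samples labelled as aerial parts. Of 13 such markers 3 had a named probe set. The root hair expansin gene EXPA7 stood at -1.27 and -0.44 in Col-0 and 0.44 and 0.71 in aln-1, a difference of 1.43 (SE 0.36). EXPA18, a root hair expansin gene as well, stood at -0.67 and -0.37 and 0.37 and 0.86, a difference of 1.14 (SE 0.25). PYK10, an abundant root beta-glucosidase, stood at -0.075 and -0.10 and 0.075 and 0.15, a difference of 0.20 (SE 0.13). For all 3 both aln-1 arrays lay above both Col-0 arrays, as in 25.2% of all probe sets. Col-0 replicate 1 was the lowest array of EXPA7 and EXPA18 but not of PYK10, and was the lowest in 23.9% of all probe sets. The only measured leaf marker of 6, the Rubisco activase gene RCA, ran the other way, at 0.31 and 0.13 in Col-0 and -0.13 and -0.33 in aln-1. Both aln-1 arrays lay below both Col-0 arrays in 34.9% of all probe sets. None of the 3 markers passed in limma, nor did RCA, with limma adjusted p from 0.146 to 0.418. The values are centred per gene, so they give no summed level of these markers in either genotype. By brightness class EXPA7 and EXPA18 were in the middle class on their dimmest array, and PYK10 and RCA were bright on every array. The part of the root markers, of Col-0 replicate 1 and of the replicate number in the peroxidase differences was not tested.

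Peroxidases that polymerise lignin showed no common direction. On this list 5 of 6 genes were measured, 3 above 0 and 2 below, with a median of 0.77, which was -0.13 without Col-0 replicate 2. PRX72 is described above. AT2G41480, annotated as PRX25 and known from stem lignification, stood at -1.14 and -0.27 in Col-0 and 0.27 and 0.90 in aln-1, a difference of 1.29 (SE 0.43) with a limma adjusted p of 0.215, and 0.86 without Col-0 replicate 1. PRX52, the gene AT5G05340, stood at 0.13 and -1.67 in Col-0 and -0.12 and 0.12 in aln-1. Its difference of 0.77 (SE 0.71) came with overlapping genotypes, and without Col-0 replicate 2 it was -0.13. AT2G22420 overlapped between genotypes too, at 0.30 and -0.16 in Col-0 and 0.16 and -0.25 in aln-1. AT5G64120, annotated as PRX71, stood at 0.13 and 0.95 in Col-0 and -0.13 and -0.25 in aln-1, a difference of -0.73 (SE 0.35). Both aln-1 arrays of PRX71 lay below both Col-0 arrays, and without Col-0 replicate 2 the difference was -0.31.

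Of the burst and cuticle list, 2 of 4 genes were measured, AT5G17820 and PRX71, and as given above they differed in opposite directions. The genes PRXCA and PRXCB, known for the oxidative burst after pathogen recognition, are not named alone on a probe set and were not analysed here. The 4 genes placed in flowers, fruits and seeds were all measured, and all 4 overlapped between genotypes. So did 12 of the 45 members and 9065 of all 22746 probe sets. AT3G50990, annotated as PER36 and known for opening the outer wall of the seed coat, was dim and stood at 0.11 and -0.11 in Col-0 and -0.30 and 1.67 in aln-1. Its difference of 0.68 (SE 0.78) rested on aln-1 replicate 2, and without that array it was -0.30. AT4G16270 stood at 0.10 and -0.95 in Col-0 and -0.10 and 0.16 in aln-1, a difference of 0.46 (SE 0.44). Without Col-0 replicate 2, its one low array, AT4G16270 differed by -0.071. AT1G44970 and AT2G22420, also on this list, had differences of 0.059 and -0.11.

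The remaining 23 members are on no role list and were not 2-fold apart in all pairs. Their differences ran from -2.34 to 1.74 with a median of 0.23, 15 above 0 and 8 below. The genotypes were apart in 18 of them, 12 with aln-1 above and 6 with aln-1 below, which is 52.2% and 26.1% against 25.2% and 34.9% of all probe sets. The 3 with the closest replicates were AT3G03670, AT4G33420 and AT4G25980, whose replicates differed by at most 0.10, 0.17 and 0.20. AT4G33420 stood at -0.59 and -0.42 in Col-0 and 0.42 and 0.57 in aln-1, a difference of 1.00 (SE 0.15) or 2.00-fold with a limma adjusted p of 0.102, and 0.0497 without the dim probe sets and 0.0349 with the class prior. AT3G03670 was lower, at 0.28 and 0.38 in Col-0 and -0.39 and -0.28 in aln-1, a difference of -0.67 (SE 0.14), although at least 1 of its arrays was dim. The limma adjusted p of AT3G03670 was 0.138, and 0.535 with the class prior. AT4G25980 was lower by less, at 0.28 and 0.085 in Col-0 and -0.085 and -0.28 in aln-1, a difference of -0.36 (SE 0.17).

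The 3 with the widest replicates, AT1G14550, AT1G24110 and AT2G39040, were all dim. AT1G14550 had the most negative difference of the family, -2.34 (SE 1.03), with Col-0 arrays at 0.35 and 1.09 and aln-1 arrays at -0.35 and -2.88. Most of it came from aln-1 replicate 2: without that array the difference was -1.08. AT2G39040 stood at -0.46 and -1.84 in Col-0 and 0.71 and 0.46 in aln-1, a difference of 1.74 (SE 0.56), and 1.05 without Col-0 replicate 2. AT1G24110 overlapped, at 0.61 and -0.94 and -0.43 and 0.43.

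**Figure D4:**
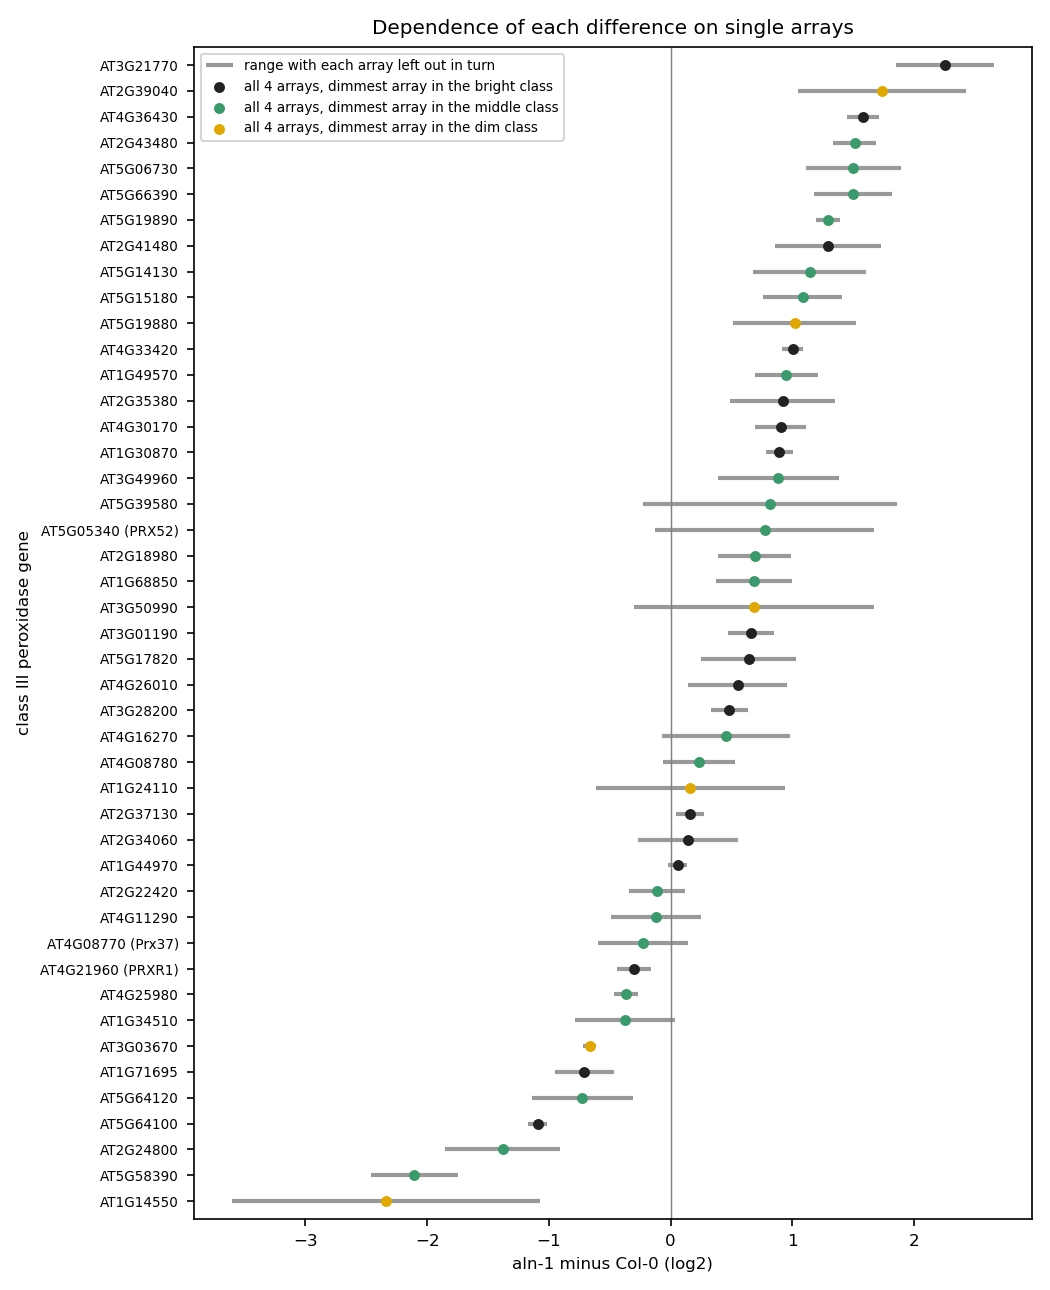
Difference of each peroxidase between genotypes, aln-1 minus Col-0 in log2 on the x axis; points are the estimate from all 4 arrays, coloured by the brightness class of the dimmest array, and grey bars span the 4 estimates with 1 array left out. The bar stays on 1 side of 0 for 33 genes and crosses it for 12, and it is widest for AT1G14550, from -3.60 to -1.08.

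Peroxidase genes often lie in tandem, and 11 pairs of members were separated by at most 2 protein-coding genes, 4 of them with both genes measured. AT5G19880 and AT5G19890, which are adjacent, were both higher in aln-1, with differences of 1.02 (SE 0.50) and 1.30 (SE 0.16). AT5G19880 was dim, its nearest arrays were 0.14 apart, and its limma adjusted p was 0.321. Without Col-0 replicate 2 the difference of AT5G19880 was 0.52, and without aln-1 replicate 2 it was 0.65. AT5G64100 and PRX71, with 1 gene between them, were both lower, by differences of -1.09 and -0.73. The adjacent genes AT4G08770, annotated as Prx37, and AT4G08780 overlapped between genotypes in both cases, with differences of -0.23 and 0.23. AT4G25980 and AT4G26010, with 2 genes between them, differed in opposite directions, by -0.36 and 0.55. Related genes can share probe sequence on such arrays, so neighbouring values need not be independent.

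Few other genes of peroxide metabolism and lignin synthesis had a named probe set. Of 10 NADPH oxidase genes, which make the superoxide from which apoplastic hydrogen peroxide arises, 3 were measured. AT1G19230 stood at -0.77 and -0.31 in Col-0 and 0.31 and 0.49 in aln-1, a difference of 0.94 (SE 0.23). The other two, AT4G11230 and AT4G25090, had differences of 0.55 (SE 0.30) and -0.57 (SE 0.35), and AT4G25090 overlapped between genotypes. Without aln-1 replicate 2 AT4G11230 differed by 0.22, and with aln-1 replicate 1 left out by 0.88. AT4G25090 differed by -0.89 without Col-0 replicate 1, by -0.25 without Col-0 replicate 2 and by -0.29 without aln-1 replicate 1. Of 14 monolignol synthesis genes 2 were measured, both with aln-1 above Col-0 on all arrays, as in 25.2% of all probe sets. HCT, an acyltransferase of the pathway, differed by 0.62 (SE 0.16), and CCR2, a cinnamoyl-CoA reductase, by 1.00 (SE 0.31). Of 11 catalase and ascorbate peroxidase genes, which remove hydrogen peroxide inside the cell, the chloroplast enzymes SAPX and TAPX were measured and differed by -0.081 (SE 0.13) and -0.23 (SE 0.17), with ranges of -0.12 to -0.042 and -0.37 to -0.086 when 1 array was left out. None of these 7 genes passed in limma, where the adjusted p ran from 0.158 to 0.740, and of the 7 superoxide dismutase and 4 laccase genes 0 were named alone on a probe set.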

How the data were processed

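Aerial-part RNA of 2 Col-0 and 2 aln-1 samples was hybridised to single-channel Affymetrix arrays. The submitters' processing notes name MAS5. The deposited values are on a log2 scale as read here, and in all 22746 probe sets the 2 middle arrays sum to 0 within 2e-06, so each probe set is centred on its own median. No label or header used here gives the log base; log2 was taken from the rounding steps. For 13513 probe sets the platform annotation names 1 gene, for 503 several, and 8730 are unnamed here; 13436 of the former matched RefSeq on TAIR10.1. Brightness was read from the single-precision rounding of the deposited values, within 1.2e-09, since the planned percentile of signal could not be taken from centred values. Arrays give no counts, so their number limits the precision.

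Genotypes were compared with limma 3.58.1 in R 4.3.3 (lmFit and eBayes, two-sided) over all probe sets, with Benjamini-Hochberg adjustment, and the code was tested on simulated data. An exact permutation test of 2 against 2 arrays cannot go below 0.333 and was not used. Values on each array are given for members 2-fold apart in all 4 array pairs and for members of the role lists; of the others, for those with the 3 smallest and 3 largest replicate ranges; neighbouring members are given as pairs, with at most 2 genes between them. The members and lists were chosen with earlier results of these data known. Alternatives were a replicate block, each array left out, arrays centred on their medians, a robust prior, a prior within brightness classes, dim probe sets left out, and probe sets with equal values in a genotype left out.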

Additional observations from a re-analysis of the deposited data

How the results depend on the processing

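With 2 arrays per genotype, the limma calls rest on the prior for the spread. The number of members called was 0 in limma on all probe sets, 6 with the prior fitted within brightness classes and 6 without the dim probe sets, and 0 with the replicate block, the robust prior, arrays centred on their medians, probe sets with equal values left out or any array left out. With the block, the robust prior or an array left out, limma called 0 of all 22746 probe sets, so the 0 members there say nothing about the family; it called 82 probe sets with arrays centred and 49 without equal values, beside 58 on all probe sets, 1053 with the class prior and 884 without the dim ones. At an unadjusted limma p under 0.05 there were 19 members with the replicate block and 17 with the robust prior. The shares of all probe sets under 0.05 in these fits were not taken. The 2-fold count of 5 was 5 with the block and 6 with arrays centred, and 7 to 13 with an array left out, when fewer pairs must differ. The family's median difference of 0.66 was 0.72 with arrays centred and 0.39 to 0.78 with an array left out; the medians were 0.25 to 1.00 for root members and 0.36 to 0.74 for the others. Whether samples with the same replicate number were paired was not tested. Deviations of such arrays correlated at 0.021 over all probe sets and at -0.032 over the members. Replicate 1 lay below replicate 2 in 71.1% of members for Col-0 and 64.4% for aln-1, against 47.6% and 45.0% of all probe sets. Each block holds 1 array per genotype, so it cannot change a difference. The family's unchanged median of 0.66 therefore tells nothing about pairing. Of 45 members, 33 kept the sign of their difference in every setting tried and 12 reversed it with an array left out. These were AT5G39580 (-0.23 to 1.86), AT2G34060 (-0.27 to 0.55), AT1G44970 (-0.020 to 0.14), AT2G22420 (-0.34 to 0.12), AT5G05340 (-0.13 to 1.67), AT4G16270 (-0.071 to 0.98), AT1G24110 (-0.61 to 0.94), AT1G34510 (-0.78 to 0.037), AT4G11290 (-0.49 to 0.25), AT4G08770 (-0.60 to 0.14), AT3G50990 (-0.30 to 1.67) and AT4G08780 (-0.064 to 0.53). The cause was not tested, beyond that each such setting has 1 array fewer.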
